A study of Homo sapiens with 12 samples.

Results

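RNF113A and 9 proteins that meet it in the activated spliceosome were followed at the transcript level: DHX16, GPKOW, CWC22, CWC27, BUD13, RBM22, PPIL2, PRPF19 and CDC5L. The 10 genes were chosen by symbol among 26334 genes of the count tables, and all 10 passed the filter on low counts. The cells were A549, a human lung adenocarcinoma line, infected with a lentivirus carrying a control hairpin RNA (shControl) or a hairpin against RNF113A (shRNF113A) and selected with puromycin at 1 µg/ml for 4 days, so that every group, controls included, was infected and selected. Each of these was left untreated or given 25 µg/ml cisplatin for 20 h, and each of the 4 conditions holds 3 libraries. The dose and its unit are those of the labels, whereas the study's text gives cisplatin doses for its other assays in µM. The labels give 1 shRNA name per target. The methods call the replicates biological without saying that they were separate cultures, so p-values measure the spread between these libraries, which may be technical in part. Poly(A) RNA was read in pairs with the strand kept, and 26220526 to 45721152 read pairs per library were assigned to genes, the 3 smallest libraries being those labelled shRNF113A with cisplatin.

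The spliceosome is assembled anew on each intron and must be remodelled before it can cut. In the activated state the pre-mRNA and the U2, U5 and U6 RNAs are held together by PRPF19, CDC5L and their partners, and a group of proteins that includes RNF113A, CWC22, CWC27, RBM22 and BUD13 covers the site of the coming reaction. The helicase DHX16, helped by GPKOW, then pulls on the pre-mRNA, RNF113A is released, and the branching step can take place. RNF113A is also a RING-type ubiquitin ligase, and its mutation causes an X-linked form of trichothiodystrophy.

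The 2 control libraries of replicate 2, untreated and cisplatin-treated, stood apart from the other control libraries. The Pearson correlation of log2 CPM (counts scaled to a common library size) with the other libraries of the condition was 0.982 and 0.983 untreated and 0.987 and 0.988 with cisplatin, against 0.995 to 0.998 between all other pairs of replicates. The calls on the 10 genes that changed without both libraries are given beside the results. The epithelial keratins KRT8, KRT18 and KRT7 were at 1110 to 7450 CPM in every library and CDH1 at 32.1 to 197. PTPRC, CD3E and PECAM1, markers of blood and endothelial cells, stayed at or below 0.315 CPM, whereas the fibroblast collagen COL1A1 was at 34.9 in shControl untreated replicate 2, 14.0 in shControl cisplatin replicate 2 and 3.32 to 7.13 in the other 10 libraries. The part of other cells in the results was not tested.

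RNF113A, the target of the hairpin, was lower in the untreated shRNF113A libraries and was higher with cisplatin under either hairpin. It is encoded on the minus strand of chromosome X (chrX:119004497-119005791, hg19) in 1 exon of 1295 nucleotides, with no intron of its own. In CPM, with library sizes normalised by the trimmed mean of M values (TMM), the untreated shControl libraries held 20.3, 19.5 and 19.8 and the untreated shRNF113A libraries 15.3, 15.8 and 16.8. The cisplatin-treated libraries held 31.5, 28.9 and 27.7 with shControl and 25.8, 24.3 and 29.9 with shRNF113A. The untreated groups did not overlap, while with cisplatin 1 shRNF113A library stood above 2 of the 3 shControl libraries. In order, the levels were 29.4 ± 1.95 (SD, n = 3) with shControl and cisplatin, 26.7 ± 2.88 with shRNF113A and cisplatin, 19.9 ± 0.397 with shControl untreated and 16.0 ± 0.772 with shRNF113A untreated, and the first pair in this order overlapped.

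The drop of RNF113A in untreated cells was a log2 fold change of -0.31 (SE 0.09, adjusted p = 0.0247, edgeR's quasi-likelihood test with Benjamini-Hochberg adjustment), which leaves 0.805 of the control level. Without both control libraries of replicate 2 it was -0.33 (adjusted p = 0.0142). In cisplatin-treated cells the difference was -0.14 (SE 0.09, adjusted p = 0.233) and did not pass the test, an adjusted p under 0.05 over all genes. The 2 differences were not shown to differ from each other (log2 difference 0.17, SE 0.13, adjusted p = 0.479). Over both treatments the log2 fold change was -0.23 (SE 0.07, adjusted p = 0.0185). With 3 against 3 libraries the call in untreated cells was near the limit: leaving out shControl replicate 1 or 3, or shRNF113A replicate 1 or 2, put the adjusted p at 0.0563 to 0.094 with changes of -0.31 to -0.28. Cisplatin raised RNF113A by 0.57 on the log2 scale in shControl cells (SE 0.09, adjusted p = 0.00021) and by 0.74 in shRNF113A cells (SE 0.09, adjusted p = 2.29e-05).

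2 checks of the counting bear on these values. The paralog RNF113B had 0 counts in all 12 libraries. With the limit set at 3 counts, this allows at most 0.0656 to 0.114 CPM per library, counting error only. NDUFA1, a subunit of respiratory complex I, overlaps the start of RNF113A by 342 nucleotides on the other strand, and held 4205 to 7183 counts per library against 547 to 1303 for RNF113A. Counts on the other strand of RNF113A were 27 to 55 per library. NDUFA1 itself was 0.38 lower with cisplatin in shControl cells on the log2 scale (SE 0.13, adjusted p = 0.023), opposite to RNF113A, and with cisplatin it was 0.38 higher with shRNF113A (SE 0.13, adjusted p = 0.0284).

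**Figure D1:**
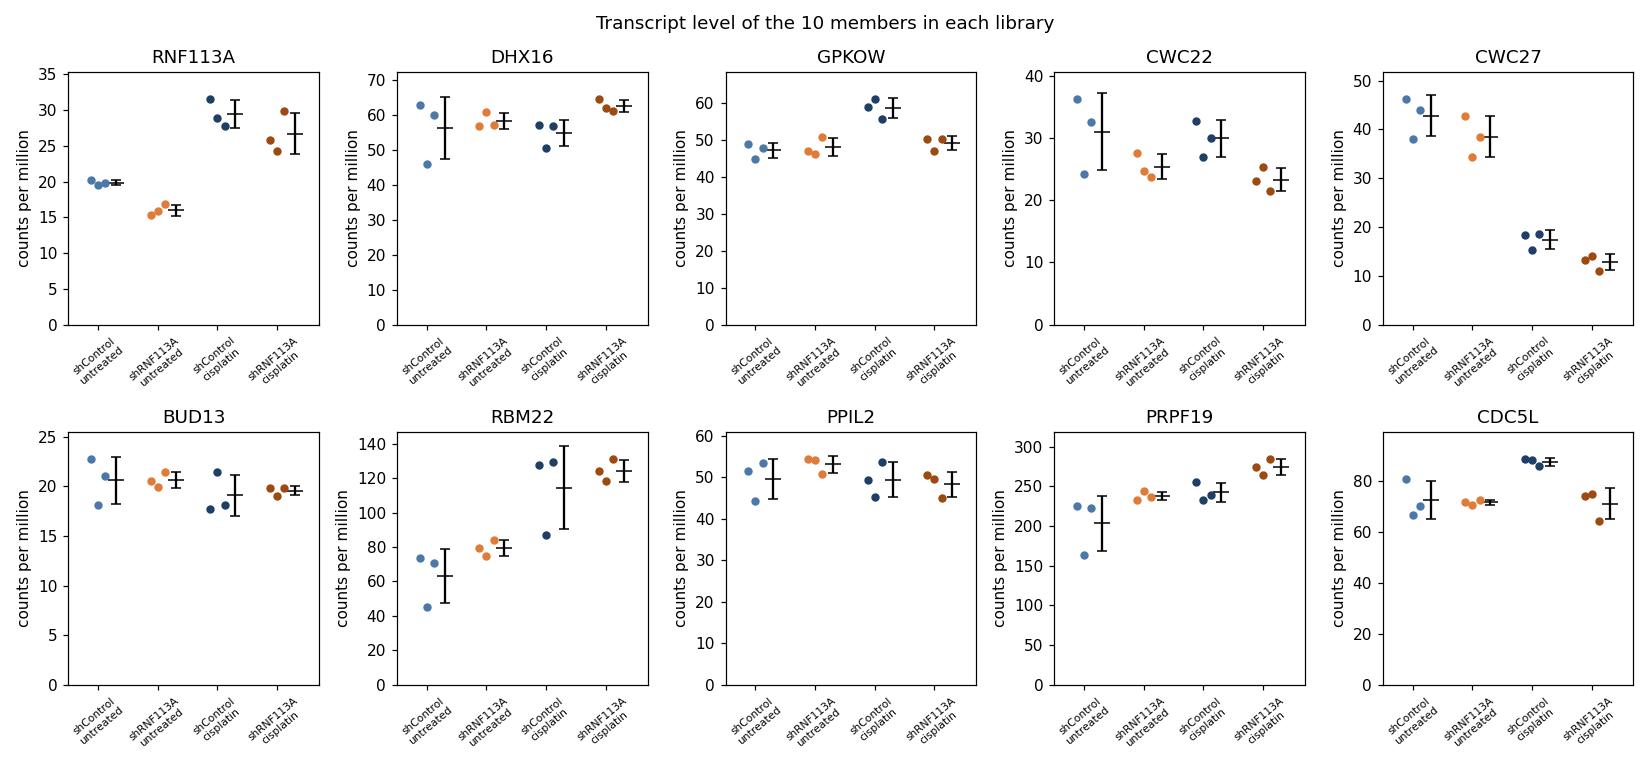
CPM (y axis, from 0) of each of the 10 genes in the 12 libraries; points are libraries, 3 per condition, and the bar beside them is the mean and SD. RNF113A is at 15.3 to 20.3 in untreated and 24.3 to 31.5 in cisplatin-treated libraries, while CWC27 goes the other way, from 34.3 to 46.2 down to 10.96 to 18.6.

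Across the 10 genes, the cisplatin effect fitted over both hairpins passed the test for 5 genes, 4 of them higher and 1 lower, beside 66.8% of all 15352 genes tested. RNF113A, RBM22, PRPF19 and GPKOW rose, CWC27 fell, and the median log2 fold change was 0.08 against 0.03 over all genes. CWC27 alone also changed at least 2-fold, as 21.5% of all genes did. The effect of the hairpin fitted over both treatments passed for 4 genes, with RNF113A, CWC22 and CWC27 lower and PRPF19 higher, beside 47.5% of all genes, and no gene of the 10 reached 2-fold. Their median was -0.05 against -0.00 over all genes. The interaction of hairpin and drug passed for none of the 10, beside 4.25% of all genes. GPKOW and CDC5L had an unadjusted p under 0.05 in that test, and DESeq2 also passed 0. For the effects above, DESeq2 did not pass GPKOW with cisplatin (adjusted p = 0.0839) or PRPF19 with the hairpin (adjusted p = 0.0671). Neither did edgeR with the library scaling of DESeq2 (adjusted p = 0.0751 and 0.0654). DESeq2 passed CWC22 as lower with shRNF113A in cisplatin-treated cells (-0.40, adjusted p = 0.0226).

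Between single conditions, the shRNF113A hairpin passed the test for 1 of the 10 genes in untreated cells, RNF113A, beside 27.4% of all genes. With cisplatin it passed for 3, GPKOW, CWC27 and CDC5L, all lower, beside 42.9%. Cisplatin passed for 5 genes in shControl cells, RNF113A, GPKOW, RBM22 and CDC5L higher and CWC27 lower, beside 55.0%. In shRNF113A cells it passed for 3, RNF113A and RBM22 higher and CWC27 lower, beside 60.2%. In each of these comparisons the share among the 10 genes was below that of all genes. The comparisons share libraries, so their values are set side by side only. Wherever groups of libraries are said not to overlap, the share of all genes for which that held was not counted.

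**Figure D2:**
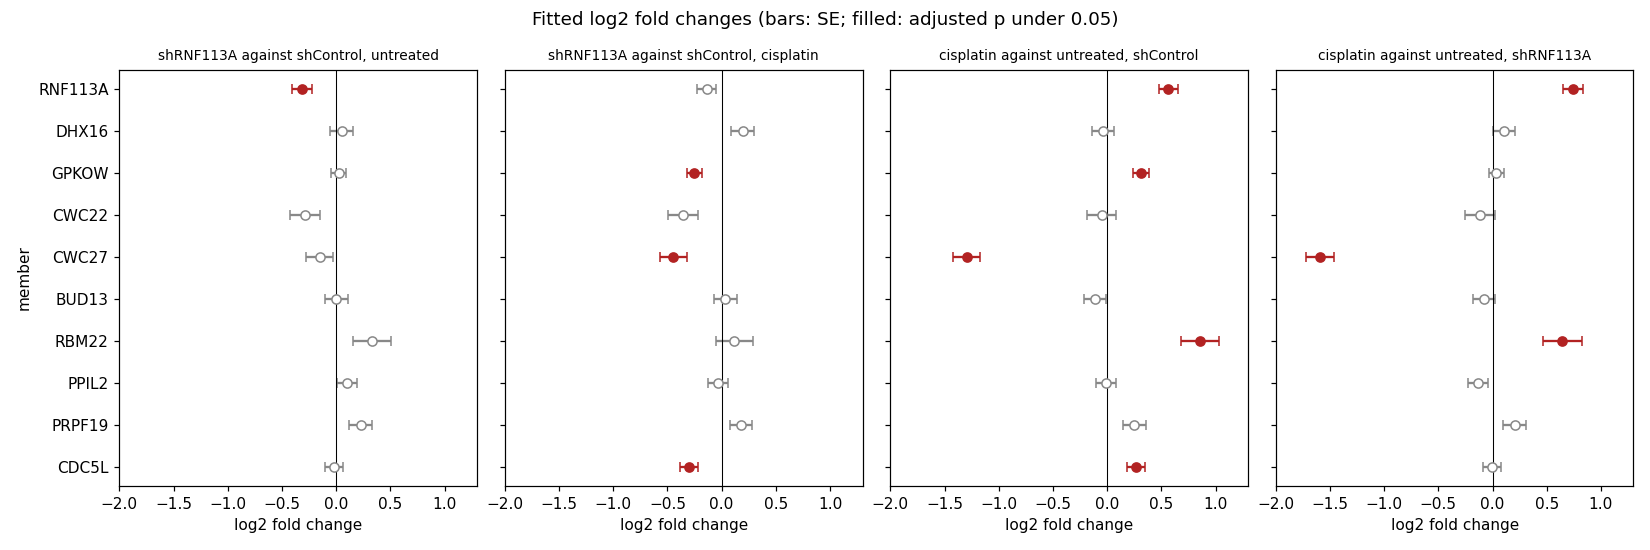
Fitted log2 fold changes (x axis) of the 10 genes in the 4 comparisons of single conditions; points are estimates, bars are SE, and filled points passed the test. CWC27 lies at -1.30 and -1.59 for cisplatin, apart from the other 9 genes, whose changes lie between -0.36 and 0.86.

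CWC27, a spliceosomal protein with a cyclophilin-type isomerase fold that binds CWC22 and the exon junction helicase EIF4A3, showed the largest change among the 10 genes. It spans 249834 nucleotides of chromosome 5 (chr5:64064757-64314590, plus strand), the longest of the 10 loci, of which 3042 are exonic. The shControl libraries held 46.2, 38.1 and 44.04 CPM untreated and 18.4, 15.2 and 18.6 with cisplatin. The shRNF113A libraries held 42.7, 34.3 and 38.4 untreated and 13.3, 14.0 and 10.96 with cisplatin. Treated and untreated libraries did not overlap under either hairpin. The log2 fold change of CWC27 with cisplatin was -1.30 in shControl cells (SE 0.12, adjusted p = 3.11e-06), to 0.407 of the untreated level, and -1.59 in shRNF113A cells (SE 0.13, adjusted p = 6.03e-07), to 0.332. With cisplatin all 3 shRNF113A libraries were below all 3 shControl libraries (log2 fold change -0.44, SE 0.13, adjusted p = 0.014), and without shRNF113A cisplatin replicate 3 this difference was -0.35 with an adjusted p of 0.0653. In untreated cells CWC27 differed by -0.15 (SE 0.12, adjusted p = 0.382). Over both treatments the difference was -0.29 (SE 0.10, adjusted p = 0.0225), a call that was lost without shRNF113A untreated replicate 2 (adjusted p = 0.051) or shRNF113A cisplatin replicate 3 (adjusted p = 0.0512).

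CWC22, which brings EIF4A3 to the spliceosome for later deposition on the joined exons, was lower with the shRNF113A hairpin over both treatments by 0.32 on the log2 scale (SE 0.10, adjusted p = 0.0138). Its libraries held 36.3, 24.2 and 32.5 CPM in untreated shControl cells against 27.6, 24.6 and 23.8 in untreated shRNF113A cells. With cisplatin the values were 32.8, 26.9 and 30.1 against 23.1, 25.3 and 21.5. The lowest shControl value in each treatment is that of replicate 2, and only the cisplatin-treated groups did not overlap. Within untreated cells the log2 fold change was -0.29 (adjusted p = 0.136), and without both control libraries of replicate 2 it was -0.44 (SE 0.09, adjusted p = 0.00126). Within cisplatin-treated cells it was -0.36 (adjusted p = 0.0516), and without those libraries -0.43 (adjusted p = 0.00116). Cisplatin left CWC22 at a log2 fold change of -0.05 in shControl cells (SE 0.14, adjusted p = 0.775).

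DHX16, the helicase of the catalytic activation step, did not pass the test in any comparison of transcript level. Its values were 62.8, 46.1 and 59.9 CPM in untreated shControl libraries, 57.1, 50.5 and 56.8 with shControl and cisplatin, 56.9, 61.0 and 57.0 in untreated shRNF113A libraries, and 64.6, 62.1 and 61.3 with shRNF113A and cisplatin. The last group stood above the other cisplatin-treated libraries without overlap, at a log2 fold change of 0.19 (SE 0.10, adjusted p = 0.154). It also stood above the untreated shRNF113A libraries, at 0.10 (SE 0.10, adjusted p = 0.408). The share of all genes without such overlap was not counted. Without shControl untreated replicate 2 the change for shRNF113A against shControl in cisplatin-treated cells was again 0.19 (SE 0.07, adjusted p = 0.0338). That library is not part of this comparison and enters it only through the shared estimate of the spread, the filter and the scaling.

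GPKOW, the G-patch partner of DHX16, was higher with cisplatin in shControl cells and not detectably so in shRNF113A cells. The shControl libraries held 49.0, 45.0 and 48.0 CPM untreated and 59.0, 61.2 and 55.8 with cisplatin, without overlap. The shRNF113A libraries held 47.1, 46.3 and 50.9 untreated and 50.5, 47.1 and 50.3 with cisplatin, all within 1 range. The log2 fold change was 0.31 in shControl cells (SE 0.07, adjusted p = 0.00265) and 0.04 in shRNF113A cells (SE 0.07, adjusted p = 0.682). With cisplatin GPKOW was lower with shRNF113A than with shControl by 0.25 (SE 0.07, adjusted p = 0.0136). The test of the difference between the cisplatin effects gave -0.27 (SE 0.10) with an unadjusted p of 0.0182 and an adjusted p of 0.139, so a difference was not shown. The cisplatin effect fitted over both hairpins, 0.17 (adjusted p = 0.0283), passed no longer in 7 of the 12 fits that left out 1 library, with adjusted p of 0.0537 to 0.11, nor without both control libraries of replicate 2 (0.12, adjusted p = 0.0842).

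CDC5L, a Myb-like core subunit of the PRP19 complex, was likewise higher with cisplatin in shControl cells. In shControl cells it held 80.9, 66.7 and 70.2 CPM untreated and 88.5, 88.1 and 85.8 with cisplatin. With shRNF113A it held 71.7, 70.6 and 72.5 untreated and 74.2, 74.96 and 64.1 with cisplatin. The shControl groups did not overlap and the shRNF113A groups did. The log2 fold change with cisplatin was 0.27 in shControl cells (SE 0.08, adjusted p = 0.0157) and -0.01 in shRNF113A cells (SE 0.08, adjusted p = 0.934), and the interaction had an adjusted p of 0.194. With cisplatin CDC5L was lower with shRNF113A by 0.30 (SE 0.08, adjusted p = 0.0129). Without shControl untreated replicate 3 the rise had an adjusted p of 0.0539, and without shRNF113A cisplatin replicate 3 the drop was -0.23 with an adjusted p of 0.0595. Without both control libraries of replicate 2 the rise was 0.21 (adjusted p = 0.0498), and CDC5L also passed as lower with shRNF113A over both treatments, at -0.19 (adjusted p = 0.0294).

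PRPF19, the U-box ubiquitin ligase that gives the PRP19 complex its name, was the most abundant of the 10 transcripts per length of exon. Its libraries held 225, 164 and 223 CPM in untreated shControl cells, 255, 233 and 239 with cisplatin, 233, 244 and 237 with shRNF113A untreated and 274, 265 and 284 with shRNF113A and cisplatin. In all 4 comparisons of single conditions its groups did not overlap, a trait whose share over all genes was not counted. None of the 4 passed, with log2 fold changes of 0.18 to 0.25 and adjusted p of 0.109 to 0.185 apart from 0.0592 for cisplatin in shControl cells. With a term for the replicate number over all 12 libraries, the cisplatin change in shControl cells was 0.26 (SE 0.10, adjusted p = 0.0402). That term is shared with the shRNF113A libraries, so this is not a paired fit of the shControl libraries alone. Over both hairpins cisplatin raised PRPF19 by 0.23 (SE 0.07, adjusted p = 0.0138), and over both treatments it was 0.20 higher with shRNF113A (SE 0.07, adjusted p = 0.0361). The latter call was lost in 9 of the 12 fits that left out 1 library (adjusted p = 0.0562 to 0.105) and was 0.12 (adjusted p = 0.0441) without both control libraries of replicate 2, while without these the cisplatin change in shRNF113A cells passed at 0.20 (adjusted p = 0.00433). The control libraries are not part of the comparison in shRNF113A cells and enter it only through the shared spread, filter and scaling. Without both control libraries of replicate 2, the cisplatin change in shControl cells was 0.14 (adjusted p = 0.0863). The hairpin then left PRPF19 at 0.09 untreated (adjusted p = 0.278) and 0.15 with cisplatin (adjusted p = 0.0552).

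RBM22, which contacts the catalytic RNA core, rose with cisplatin under both hairpins. It went from 73.6, 45.2 and 70.6 to 127, 86.9 and 129 CPM in shControl cells and from 79.6, 74.6 and 84.3 to 124, 118 and 131 in shRNF113A cells, without overlap in either. The low values of the shControl groups are those of replicate 2. The log2 fold changes were 0.86 (SE 0.18, adjusted p = 0.00129) and 0.64 (SE 0.18, adjusted p = 0.00705), and without both control libraries of replicate 2 they were 0.83 (SE 0.08) and 0.64 (SE 0.06). The hairpin left RBM22 at 0.33 (adjusted p = 0.182) in untreated cells, or 0.14 without those libraries.

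BUD13, the scaffold of the RES complex of the activated spliceosome, and PPIL2, a cyclophilin with a U-box, passed no comparison of transcript level either. BUD13 lay between 17.8 and 22.7 CPM in all 12 libraries and PPIL2 between 44.2 and 54.3. Their log2 fold changes between conditions were -0.11 to 0.03 for BUD13 and -0.14 to 0.10 for PPIL2. Both had cisplatin-treated shRNF113A libraries below the untreated ones without overlap, a trait whose share over all genes was not counted. Without both control libraries of replicate 2, BUD13 was lower with cisplatin in shControl cells by 0.29 (SE 0.09, adjusted p = 0.0106) and over both hairpins by 0.16 (adjusted p = 0.0391).

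Levels were compared between genes as exonic RPKM (reads scaled to library size and to the kilobases of exon), as means over the 12 libraries. PRPF19 led at 107 ± 16.3 (SD, n = 12), followed by RBM22 at 34.9 ± 11.6, GPKOW at 29.5 ± 3.83, RNF113A at 18.1 ± 5.04 and DHX16 at 15.8 ± 1.5. CDC5L at 11.9 ± 1.51, CWC27 at 9.0 ± 4.24, BUD13 at 8.85 ± 0.624, CWC22 at 8.16 ± 1.2 and PPIL2 at 7.79 ± 0.489 followed. Within untreated shControl cells CWC27 stood at 13.5 ± 0.816 (n = 3), above CDC5L at 10.9 ± 0.77, and with cisplatin at 5.81 ± 0.545 it was below PPIL2 at 7.98 ± 0.517. RBM22 and GPKOW, RNF113A and DHX16, and all neighbours from CDC5L down lay within these spreads, while PRPF19 stood above RBM22 and GPKOW above RNF113A. The SDs over 12 libraries hold differences between conditions as well as between replicates. The order of means changed between conditions. In untreated shControl cells GPKOW at 26.15 ± 0.0492 (n = 3) was above RBM22 at 21.79 ± 4.7, within the SD of RBM22. In untreated shRNF113A cells DHX16 at 15.37 ± 0.675 was above RNF113A at 12.17 ± 0.524.

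37 other proteins of the machinery were counted by list: the PRP19 complex core, PRP19-related proteins, other activated-spliceosome proteins, the U5 core, other spliceosomal helicases, later-step factors and the exon junction complex. Over both hairpins cisplatin raised 22 of the 37 and lowered 6, with a median log2 fold change of 0.18 and 75.7% passing, beside the 66.8% of all genes. By list, 4 of 5 other activated-spliceosome and RES proteins rose, 5 of 6 later-step factors and 3 of 4 exon junction proteins rose, and none of these fell. The helicases split with 3 higher and 3 lower, the U5 core with 2 higher and 1 lower, and the PRP19 core with 1 of each. PRP19-related proteins were higher in 4 and lower in 1 of 9. The 66.8% counts both directions, and the share of all genes that passed as higher is not given here. No list was tested as a set. The hairpin over both treatments passed for 9 of the 37, 5 higher and 4 lower, with a median of 0.02, which is 24.3% beside 47.5% of all genes, and the interaction for none beside 4.25%. A 2-fold change was called once, for cisplatin in shRNF113A cells, in which 23.1% of all genes were called, where CTNNBL1, a PRP19 core protein with armadillo-like repeats, fell by 1.10 on the log2 scale (SE 0.10, adjusted p = 1.42e-06), from 82.6 ± 1.88 to 38.4 ± 3.22 CPM.

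Intronic reads were taken as genic minus exonic reads, and each gene's intronic reads were tested against its exonic reads in the same library. A value of 1 on this log2 scale is a doubling of intronic relative to exonic reads. 9 of the 10 genes have introns. In cisplatin-treated cells all 9 had relatively more intronic reads with shRNF113A than with shControl, with a median of 1.20. The median over all genes was also above 0, at 0.96, and 81.5% of 11488 genes passed as higher, so the 9 are read against that shift. The adjusted p-values are for a change from 0, and distances from the median of all genes were not tested. PRPF19 (1.48, SE 0.20, adjusted p = 4.14e-06), GPKOW (1.59, SE 0.27, adjusted p = 3.52e-05) and BUD13 (1.43, SE 0.28, adjusted p = 0.000129) lay 0.46 to 0.63 above the median of all genes. CWC27 (0.47, SE 0.18, adjusted p = 0.0247) lay 0.50 below it, and its call was lost without shControl cisplatin replicate 2 or shRNF113A cisplatin replicate 1 or 3 (adjusted p = 0.0544 to 0.0973). CDC5L (0.74, adjusted p = 0.00992) was lost without shControl cisplatin replicate 1 (0.49, adjusted p = 0.0805).

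In untreated cells 1 of the 9, DHX16, passed as higher with shRNF113A, beside 28.2% of all genes, with a median over the 9 of 0.46 against 0.47 over all genes. DHX16 changed by 0.75 (SE 0.22, adjusted p = 0.0215), from 3.41% ± 0.251 of genic reads to 5.59% ± 0.517 (SD, n = 3). That call was lost without shControl replicate 2 or 3 or shRNF113A replicate 2 or 3 (adjusted p = 0.0549 to 0.0959). Conversely, GPKOW, RBM22, PPIL2 and PRPF19 also passed when shControl cisplatin replicate 3 or replicate 2 was left out, at an adjusted p of 0.0101 to 0.0496 and changes of 0.46 to 0.55. In these fits 5295 of 11501 and 5190 of 11532 genes passed as higher. Those libraries are not part of this comparison and enter it only through the shared estimate of the spread and the shared filter. Without both control libraries of replicate 2, RBM22 (0.67, adjusted p = 0.00732) and PRPF19 (0.53, adjusted p = 0.0196) passed in addition to DHX16, beside 3582 of 11597 genes.

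The libraries themselves differed in this measure. Over all genes the intronic share was 4.35% to 4.82% with shControl untreated, 5.75% to 6.63% with shRNF113A untreated and 9.93% to 10.3% with shRNF113A and cisplatin. With shControl and cisplatin it was 5.47%, 4.65% and 7.16%, the last being replicate 3. The 3 libraries with the highest share were also the 3 smallest, and the part of library size or RNA quality in these shares was not tested.

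The difference between the shRNF113A effects with and without cisplatin passed for PRPF19 only, beside 3.52% of all genes, at 1.01 (SE 0.28, adjusted p = 0.0474). PRPF19 held 198 to 240 intronic reads per library with shControl untreated, 258 to 384 with shRNF113A untreated, 230 to 494 with shControl and cisplatin and 703 to 745 with shRNF113A and cisplatin. As a share of genic reads these were 2.81% ± 0.237, 3.85% ± 0.495, 3.201% ± 0.992 and 8.28% ± 0.513. The last group overlapped no other. Leaving out 1 library put the adjusted p at 0.0594 to 0.159 in 10 of 12 fits, while without shControl cisplatin replicate 3 the test passed for 5 genes, PRPF19, GPKOW, BUD13, RBM22 and PPIL2. In that last fit 5263 of all 11501 genes tested passed as higher.

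**Figure D3:**
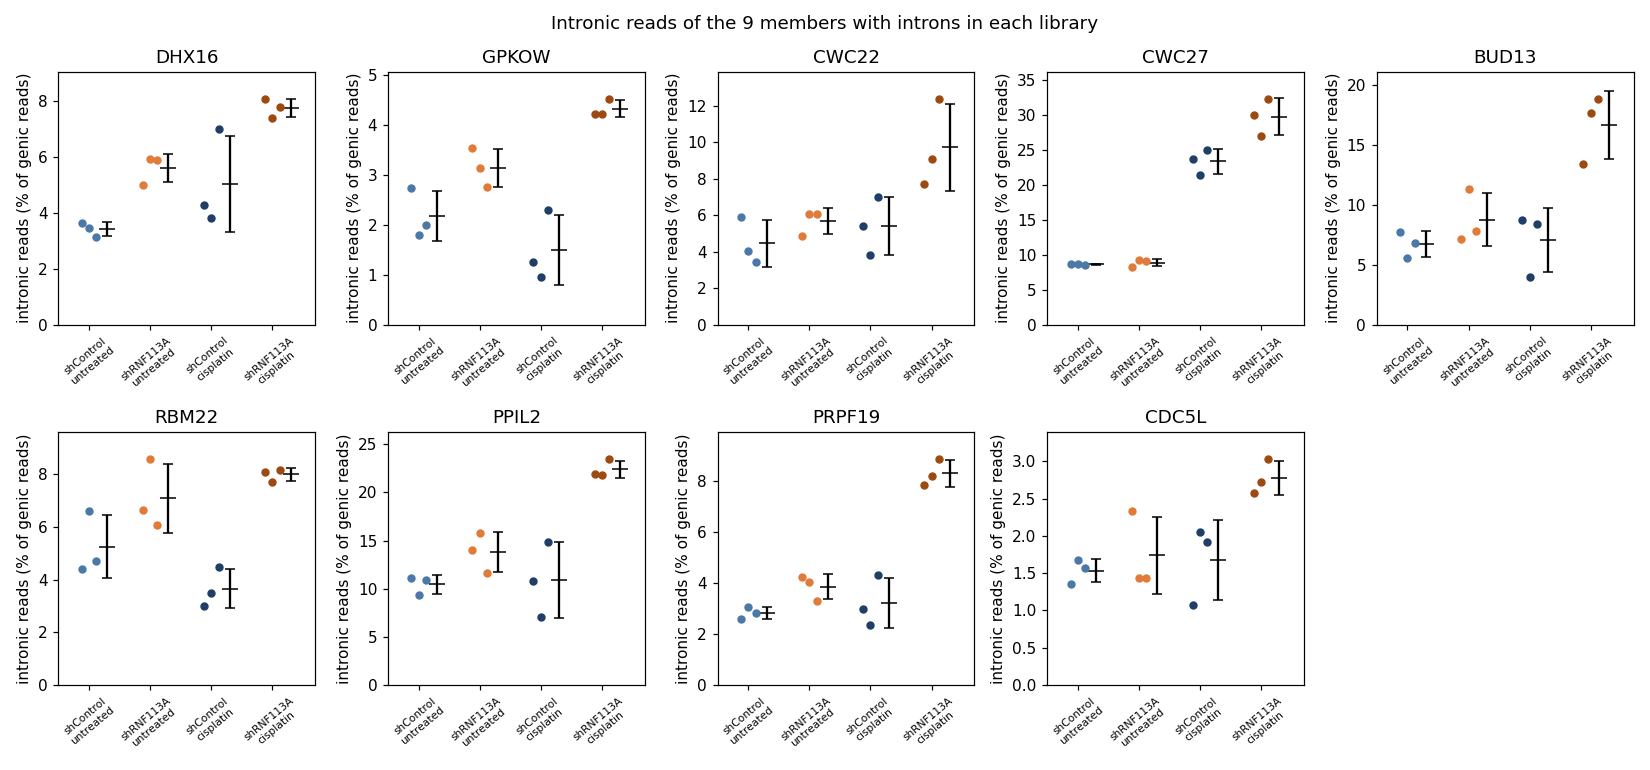
Intronic reads as a percentage of genic reads (y axis, from 0) for the 9 genes with introns; points are libraries, 3 per condition, with the mean and SD beside them. Cisplatin-treated shRNF113A libraries have the highest mean in all 9 panels, at 8.28% for PRPF19 and 22.4% for PPIL2, and CWC27 alone passed as higher with cisplatin in shControl cells, at 23.4%.

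Cisplatin in shControl cells passed as higher for CWC27 alone among the 9, beside 17.5% of all genes. CWC27 intronic reads went from 8.62%, 8.62% and 8.55% of genic reads in untreated shControl libraries to 23.7%, 21.4% and 25.0% with cisplatin. In shRNF113A libraries they went from 8.23%, 9.26% and 9.08% to 30.0%, 27.0% and 32.3%. The groups did not overlap. The log2 change relative to exonic reads was 1.70 (SE 0.18, adjusted p = 3.52e-07) in shControl cells and 2.12 (SE 0.19, adjusted p = 6.14e-09) in shRNF113A cells, which is 1.41 and 1.37 above the medians of all genes, 0.29 and 0.75. The rest of the 9 lay between -0.57 and 0.56 in shControl cells. Without shControl cisplatin replicate 3, GPKOW (-1.01, adjusted p = 0.00918) and RBM22 (-0.70, adjusted p = 0.018) passed as lower, and without replicate 2 of that group DHX16 passed as higher (0.75, adjusted p = 0.00427), as it did without both control libraries of replicate 2 (0.77, adjusted p = 0.0063).

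The counts behind the CWC27 ratio show where it moved. Exonic reads of CWC27 fell from 42.2 ± 4.21 to 16.9 ± 1.87 RPM (reads scaled to the normalised library size) in shControl cells (SD, n = 3) and from 38.1 ± 4.11 to 12.2 ± 1.72 in shRNF113A cells. Its intronic reads were at 3.97 ± 0.392 and 5.20 ± 1.05 RPM in shControl cells and at 3.69 ± 0.193 and 5.12 ± 0.272 in shRNF113A cells. The share thus moved mainly with the exonic reads. For PRPF19 the larger difference was in the intronic reads, with exonic reads at 239 ± 11.2 with shControl and cisplatin and 268 ± 9.46 with shRNF113A and cisplatin, and intronic reads at 7.92 ± 2.5 and 24.2 ± 2.34. The files do not say which part of an intron the reads come from.

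**Figure D4:**
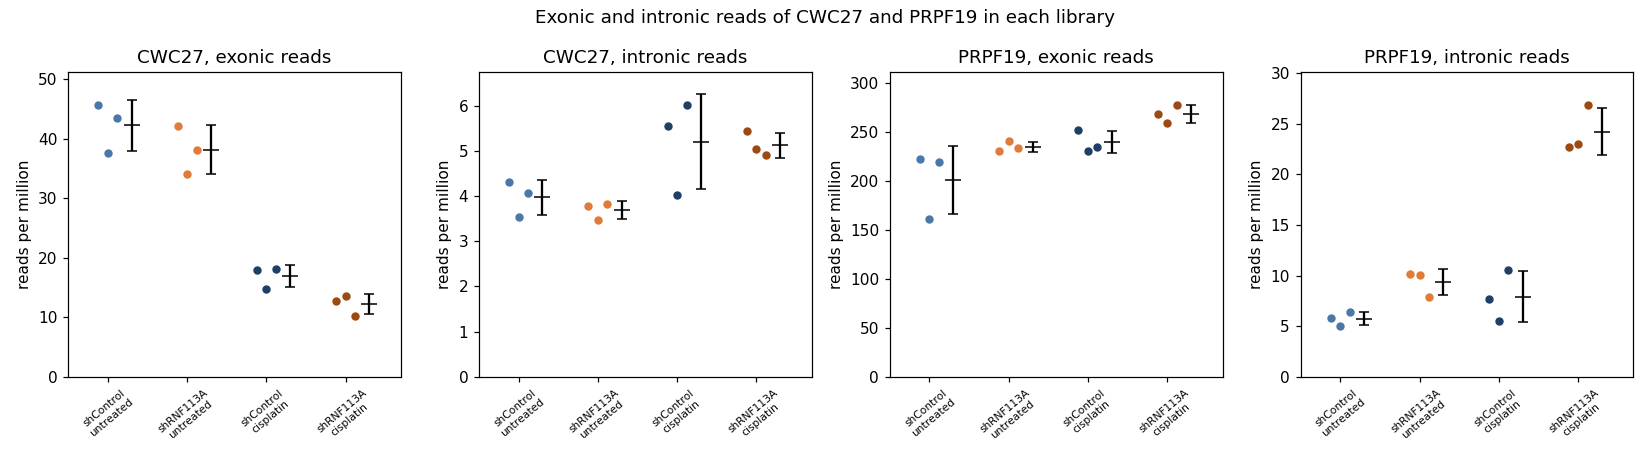
Exonic and intronic reads in RPM (y axes, from 0, on separate scales) of CWC27 and PRPF19 in the 12 libraries; bars are the mean and SD of 3 libraries. CWC27 exonic reads drop with cisplatin from means of 42.2 and 38.1 to 16.9 and 12.2 while its intronic reads do not, and PRPF19 intronic reads reach 24.2 with shRNF113A and cisplatin.

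In shRNF113A cells, cisplatin passed as higher for 7 of the 9 genes, all but GPKOW and RBM22, beside 64.6% of all genes. The median over the 9 was 0.83 against 0.75. PRPF19 changed by 1.18 (SE 0.20, adjusted p = 3.13e-05), BUD13 by 1.06 (SE 0.27, adjusted p = 0.00216) and PPIL2 by 0.85 (SE 0.23, adjusted p = 0.00293). RBM22, whose exonic reads rose, was at 0.20 (adjusted p = 0.398), 0.55 below the median of all genes. DHX16 (adjusted p = 0.0447) lost its call in 9 of the 12 fits that left out 1 library, CDC5L in 4 and CWC22 in 2, with adjusted p up to 0.156. Without both control libraries of replicate 2, GPKOW also passed as higher (0.47, adjusted p = 0.0364). Those libraries are not part of this comparison and enter it only through the shared spread and filter. PPIL2 holds further transcripts on its own strand, among them a long non-coding RNA over 17968 nucleotides and the microRNA gene MIR301B, and reads from these count as its intronic reads.

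No splicing event of the 10 genes passed the test. RNF113A, with no intron, has no event, and DHX16 and CWC22 had 2 tests each over the 4 comparisons. Among events with at least 10 reads in every library, 37 of the members were tested for shRNF113A against shControl in untreated cells, 49 with cisplatin, 39 for cisplatin in shControl cells and 46 in shRNF113A cells. Over all genes 0.906%, 2.32%, 0.529% and 2.61% of events passed. Without adjustment, 2 of 37, 6 of 49, 2 of 39 and 10 of 46 events had a p under 0.05. Over all events tested the shares were 5.63%, 9.65%, 6.15% and 10.2%. Overlapping events of the same gene were counted separately. The differences in the length-corrected share of the inclusion form (the inclusion level) lay between -7.37 and 8.91 percentage points, against the limit of 20 used for a call.

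**Figure D5:**
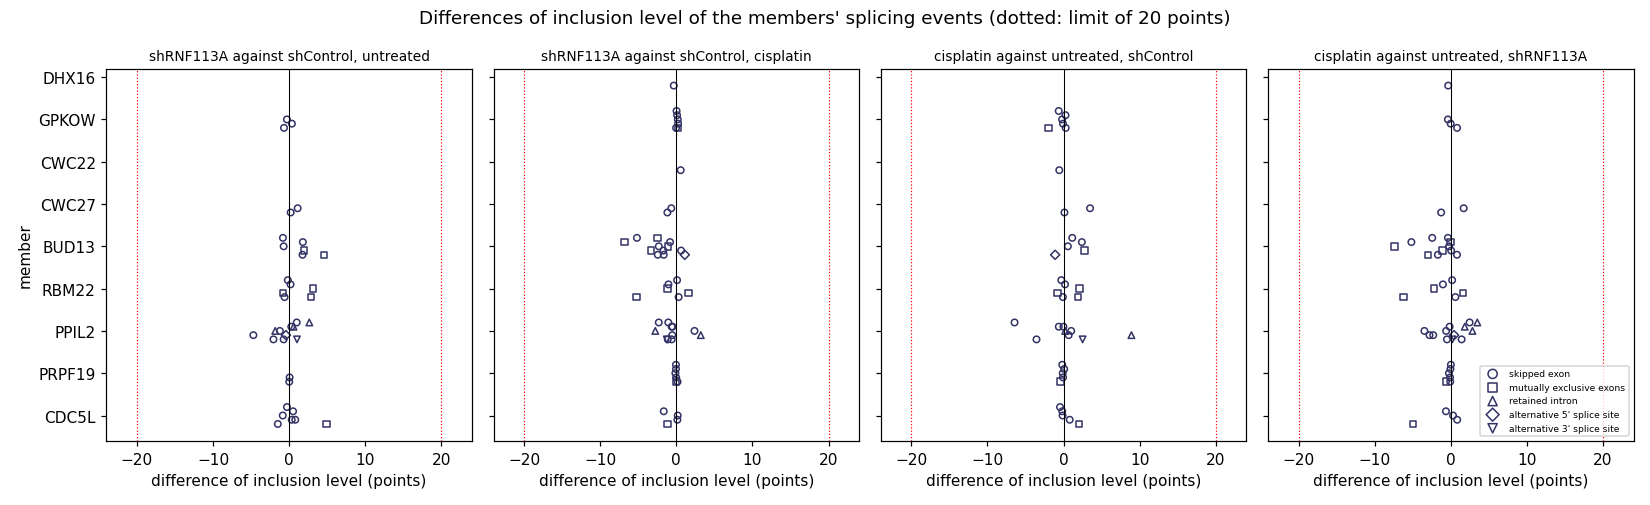
Difference of inclusion level in percentage points (x axis) for each tested splicing event of the 9 genes with events, in the 4 comparisons; the marker gives the kind of event and dotted lines mark 20 points. All points lie between -7.37 and 8.91, and none passed the test.

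The 3 retained-intron events of the 10 genes are all in PPIL2 and overlap. They are described at the intron between chr22:22049360 and chr22:22049682 (hg19, plus strand, 323 nucleotides), and the tables also list a longer intron from an upstream donor (chr22:22049256-22049682, 427 nucleotides) with the same acceptor. Its splice sites are shown because the tables list the 323-nucleotide intron with a second acceptor 4 nucleotides further on, and the choice of acceptor decides what the reads of each event mean. The sequences were read from GRCh37, the last 3 and first 3 exonic bases are included, and capitals mark the GT and AG at the ends of the intron:
PPIL2 donor, chr22:22049357-22049368: cacGTgagtgcc
PPIL2 near acceptor, chr22:22049663-22049685: gcggcttcttctcttcccAGgaa
PPIL2 far acceptor, chr22:22049667-22049689: cttcttctcttcccaggaAGcga

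Junction reads to the near acceptor numbered 56 to 105 per library and those to the far acceptor 0 to 8. For the event with the far acceptor, the inclusion reads lay within 8 reads per library of the sum of both forms of the event with the near one, and its mean inclusion level of 78.7% to 87.6% over the conditions is not read here as a level of retention. For the near acceptor, the libraries of each condition are given in the order of the tables, which do not name them. Untreated shControl libraries had 7, 14 and 11 reads of the retained form against 63, 91 and 89 spliced, and untreated shRNF113A libraries 19, 13 and 10 against 91, 94 and 70. With cisplatin the counts were 18, 4 and 17 against 84, 78 and 105 for shControl and 18, 26 and 17 against 56, 62 and 65 for shRNF113A. The inclusion level was thus 2.52% ± 1.45 and 5.73% ± 1.29 (SD, n = 3) with cisplatin, without overlap, at an unadjusted p of 0.0215 and an adjusted p of 0.0715. In untreated cells it was 2.31% ± 0.382 and 2.89% ± 0.675 (adjusted p = 0.696).

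The other event nearest to the threshold, named after its values were seen, was an exon of PPIL2 of 113 nucleotides (chr22:22024553-22024665). Its 3′ and 5′ splice sites are printed with the AG and GT in capitals, since few reads joined it:
PPIL2 exon acceptor, chr22:22024533-22024555: aatgttttttctctatcaAGttt
PPIL2 exon donor, chr22:22024663-22024674: ccaGTaagttct

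In shControl cells 15, 9 and 26 reads included this exon and 68, 77 and 69 skipped it when untreated, against 5, 3 and 10 including and 105, 106 and 134 skipping with cisplatin. The inclusion level was 8.35% ± 4.24 and 1.91% ± 0.87, without overlap, at an unadjusted p of 0.000382 and an adjusted p of 0.0838. In shRNF113A cells it was 3.65% ± 1.07 untreated and 0.85% ± 0.566 with cisplatin (adjusted p = 0.352).

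Over the 12 libraries, the genes whose log2 CPM followed RNF113A most closely were ATP6V1B2 (Pearson r = 0.99), LYPLA2 (0.987), RHOC (0.986), HPS6 (0.984) and S1PR3 (0.982), among the 9778 genes averaging 10 CPM or more. The 12 points share the 2 treatments and hairpins, so these are descriptions of 1 pattern, higher with cisplatin and lower with the hairpin. Among the partners r ran from 0.71 for GPKOW, 0.686 for RBM22, 0.477 for CDC5L and 0.418 for PRPF19, through 0.041 for CWC22 and 0.0267 for DHX16, to -0.393 for BUD13, -0.491 for PPIL2 and -0.839 for CWC27. GPKOW, the closest partner, ranked 2050 of the 9778.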

How the data were processed

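A549 libraries were made with a stranded poly(A) kit. According to the study's methods and the submitters' processing notes, reads were freed of ribosomal, transfer and mitochondrial reads and aligned by the authors to hg19 with STAR 2.5.2b. The deposited counts are raw read pairs per gene (own-strand column of STAR), and reads per exon and per gene span of Gencode protein-coding genes (HTSeq). The deposited rMATS tables give reads of the inclusion and skipping form. Their p-values and level differences are the authors' comparisons and were not used.

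edgeR 4.0.16 (R 4.3.3) fitted quasi-likelihood models to the counts with TMM scaling and filterByExpr over all 12 libraries, with Benjamini-Hochberg adjustment over all features. A gene or event passed at an adjusted p under 0.05 and was called with also a 2-fold change or 20 points of inclusion. Intronic and splicing models had a term for each library, without TMM. The 10 genes, the lists and the rules were chosen with earlier results of these data known. All 10 genes were named, with listed genes only if called at 2-fold, the 5 genes closest to RNF113A, and member events that passed. Deviations of same-numbered libraries from their condition means correlated at 0.632, 0.731 and 0.48 between untreated and cisplatin-treated shControl cells. Differently numbered libraries 1 and 3 correlated about as well (0.585 and 0.533), and replicate 2 correlated negatively with the others (-0.692 to -0.576). Among the shControl libraries, only replicate 2 was thus seen to match by number. In shRNF113A cells the same-numbered values were 0.406, -0.0647 and 0.299, against -0.442 to 0.291 for differently numbered libraries. No libraries were taken as paired in the main fits, which had no term for the replicate number. The intronic interaction and the fits without both control libraries of replicate 2 were added after the data were seen. DESeq2 1.42.0 was an alternative.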

Additional observations from a re-analysis of the deposited data

Results flagged for a closer look

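The change in PRPF19 intronic relative to exonic reads with the shRNF113A hairpin differed between cisplatin-treated and untreated cells by 1.01 on the log2 scale (SE 0.28, edgeR adjusted p = 0.0474), being 1.48 with cisplatin and 0.47 without. The test of the difference itself drew attention to it; it was added after the data were seen, and the call was lost in 10 of the 12 fits that left out 1 library.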

How the results depend on the processing

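No direction of a value that passed reversed under any alternative: of 2196 values of the 10 genes, 2070 stayed on their side of the threshold, 67 lost the call and 59 gained it, and 81 that passed in neither fit changed sign. The number of all genes passing the interaction on expression was 1395 with DESeq2 (652 with edgeR), 2627 without both control libraries of replicate 2, and 171 to 1547 leaving out 1 library. For the shRNF113A hairpin in untreated cells it was 6469 without those 2 libraries (4207 with all) and 2682 to 4804 leaving out 1. For intronic reads, the shRNF113A hairpin in untreated cells gave 5616 with only the 6 libraries compared (3260 with all 12) and 428 to 5333 leaving out 1. Cisplatin in shControl cells gave 1080 and 3839 with those 6 and without the 2 libraries (2146), and 1315 to 4841. The intronic interaction gave 1014 without the 2 libraries (406) and 27 to 5276. The causes were not tested, and fits that leave out libraries also have fewer of them.

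Among the 10 genes, the shRNF113A hairpin in untreated cells passed for 2 with library size in place of TMM, with the replicate block, and without the 2 libraries (1 as reported), and for 0 to 2 leaving out 1. The shRNF113A hairpin over both treatments passed for 2 to 5 and with cisplatin for 1 to 6. Cisplatin in shRNF113A cells passed for 5 with only its 6 libraries (3 as reported). For intronic reads, the shRNF113A hairpin in untreated cells passed for 5 with only its 6 libraries, 3 without the 2 control libraries and 0 to 5 leaving out 1; cisplatin for 2 without the 2 libraries and 1 to 3 in shControl cells, and 4 to 8 in shRNF113A cells; the interaction for 0 with genes of fewer genic than exonic reads kept and 0 to 5 leaving out 1.

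Called splicing events over all genes, at 20 points as reported, at 10 points and with no limit, were 49, 190 and 765 for the shRNF113A hairpin in untreated cells, 146, 492 and 1970 with cisplatin, 57, 153 and 443 for cisplatin in shControl cells and 243, 691 and 2239 in shRNF113A cells. Leaving out 1 library gave 25 to 53, 81 to 187, 20 to 36 and 140 to 241.

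With the replicate number as a block, RBM22 was higher with shRNF113A (0.25, adjusted p = 0.0351, and 0.36, adjusted p = 0.0403, in untreated cells), and CWC22 was lower with cisplatin present (-0.35, adjusted p = 0.0368). Same-numbered libraries did not deviate together across the hairpins (r of 0.0201, 0.00857 and 0.135 untreated, -0.2, 0.0904 and -0.0186 with cisplatin). Across treatment in shRNF113A cells, same-numbered libraries 1 and 3 correlated at 0.406 and 0.299 and same-numbered libraries 2 at -0.0647. Differently numbered libraries there correlated at -0.442 to 0.291. For the splicing events alone, no fit with the replicate number was possible, because their libraries are not named.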
